A study of Mus musculus with 6 samples.

Results

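The 38 genes described here encode the complement and coagulation factors that the liver secretes into plasma, together with their regulators. They were matched by symbol to a fixed list, which was drawn up with earlier results of these data known. All 38 were found among the 22599 genes of the table. All 38 also passed the filter on low counts, which 13205 genes passed. RNA was measured by bulk sequencing in 6 mouse liver libraries at 0 h of an ischemia-reperfusion series. Of these, 3 came from mice with floxed Ncor1 alleles (NcoR1 fl/fl, labelled WT, here flox 1 to 3). The other 3 came from NcoR1ΔHep mice (labelled knockdown NcoR1, here NcoR1ΔHep 1 to 3), in which the floxed gene for the nuclear receptor co-repressor NcoR1 is deleted in hepatocytes. Both groups were fed chow under a 12 h light and dark cycle, and all 6 carry a treatment label of liver ischemia-reperfusion, although the titles give 0 h. The labels used here give no Cre driver, age, sex or strain. Nor do they tie a library to 1 mouse, so the p-values measure only the spread between these libraries.

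Complement is a cascade of plasma proteins that marks and lyses microbes. The lectin pathway starts when mannose-binding lectins dock on sugars and their proteases cut C4 and C2, the classical pathway starts with the C1 complex, and both lead to cleavage of C3, after which C5 to C9 assemble a pore in the membrane. Coagulation is a parallel chain of proteases, several of them dependent on vitamin K, that ends when thrombin cuts fibrinogen to fibrin, which plasmin later dissolves. Hepatocytes make most of these proteins, and fibrinogen and several complement factors are acute-phase proteins whose genes respond to interleukin-6 during inflammation.

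The libraries held 36975231 to 38470468 counts each, of which the 38 genes took 3.58% (NcoR1ΔHep 1) to 5.71% (flox 3). Ncor1 itself stood at 6.78, 6.70 and 7.72 FPKM in flox 1 to 3 and at 5.34, 6.63 and 4.93 FPKM in NcoR1ΔHep 1 to 3. These groups did not overlap in FPKM, but the log2 fold change was -0.31 (SE 0.21, edgeR adjusted p = 0.931), NcoR1ΔHep 2 lay close to the flox libraries, and a gene total need not show the loss of single exons, so the genotypes rest on the labels. Alb, the defining hepatocyte transcript, lay between 31817 and 42939 FPKM in the 6 libraries. Of the 10 hepatocyte markers of the fixed list 9 were tested. Log2 fold changes were above zero for 7 and below it for 2, Alb among the latter (median 0.30), and none was called. These markers averaged 0.28 above their 6-library mean in NcoR1ΔHep 1 and 0.28 below it in flox 1 on the log2 scale. NcoR1ΔHep 1 stood apart: it held 17138 counts of Xist, the RNA of the inactive X chromosome, against 6 to 18 in the other 5 libraries, and its Y-linked check genes summed to 0.534 CPM (counts scaled to the library total) against 113 to 271. Results that rest on this library are given with and without it. In bulk liver, fewer cells of a type and less RNA per cell cannot be told apart.

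None of the 38 genes differed between the groups by edgeR's quasi-likelihood test, and no gene of the 13205 did (0% called). The smallest adjusted p among the 38, 0.931, was also the smallest in the table, and the highest was 0.998. DESeq2 called 5 of 20289 genes (0.0246%) and none of the 37 members it tested, as it gave no p for Cfd. At an unadjusted p under 0.05, Masp1 alone was singled out, as 1 of 38 by edgeR (2.63%) and 1 of 37 by DESeq2. Over all genes tested the share was 3.35% by edgeR (1.43% higher and 1.92% lower in NcoR1ΔHep) and 3.02% by DESeq2. The 3 NcoR1ΔHep libraries all lay below the 3 flox libraries for 3 of the 38 genes, Mbl1, Masp1 and C3 (7.89%), and all lay above for none. Over all genes the groups did not overlap for 8.82% (3.29% higher and 5.53% lower), and for 7.56% in FPKM, where Hc was added to these 3 genes, so the share among the 38 was near the background. Between 3 libraries and 3, an exact permutation test of a single gene cannot go below p = 0.1.

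The fold changes were small. Of the 38 genes, 34 had a log2 fold change within 0.5 of 0, 26 lay below zero (68.4%, beside 46.5% of all genes tested) and 12 lay above it (31.6%, beside 53.5%). The median was -0.14, beside 0.03 over all genes tested. That lean rested on NcoR1ΔHep 1: without it, 15 of the 38 lay below zero and 23 above, with a median of 0.06. It also rested on flox 3, since without that library 17 lay below zero and 21 above, with a median of 0.07. The unadjusted 95% interval of a fold change reached 0.67 to either side at the median over the 38 genes. It was narrower for some genes, as for Mbl1 (-0.88 to 0.05), and wider for others, as for C6 (-2.25 to 1.59). The median width does not mark a size above which a difference would have been found.

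**Figure D1:**
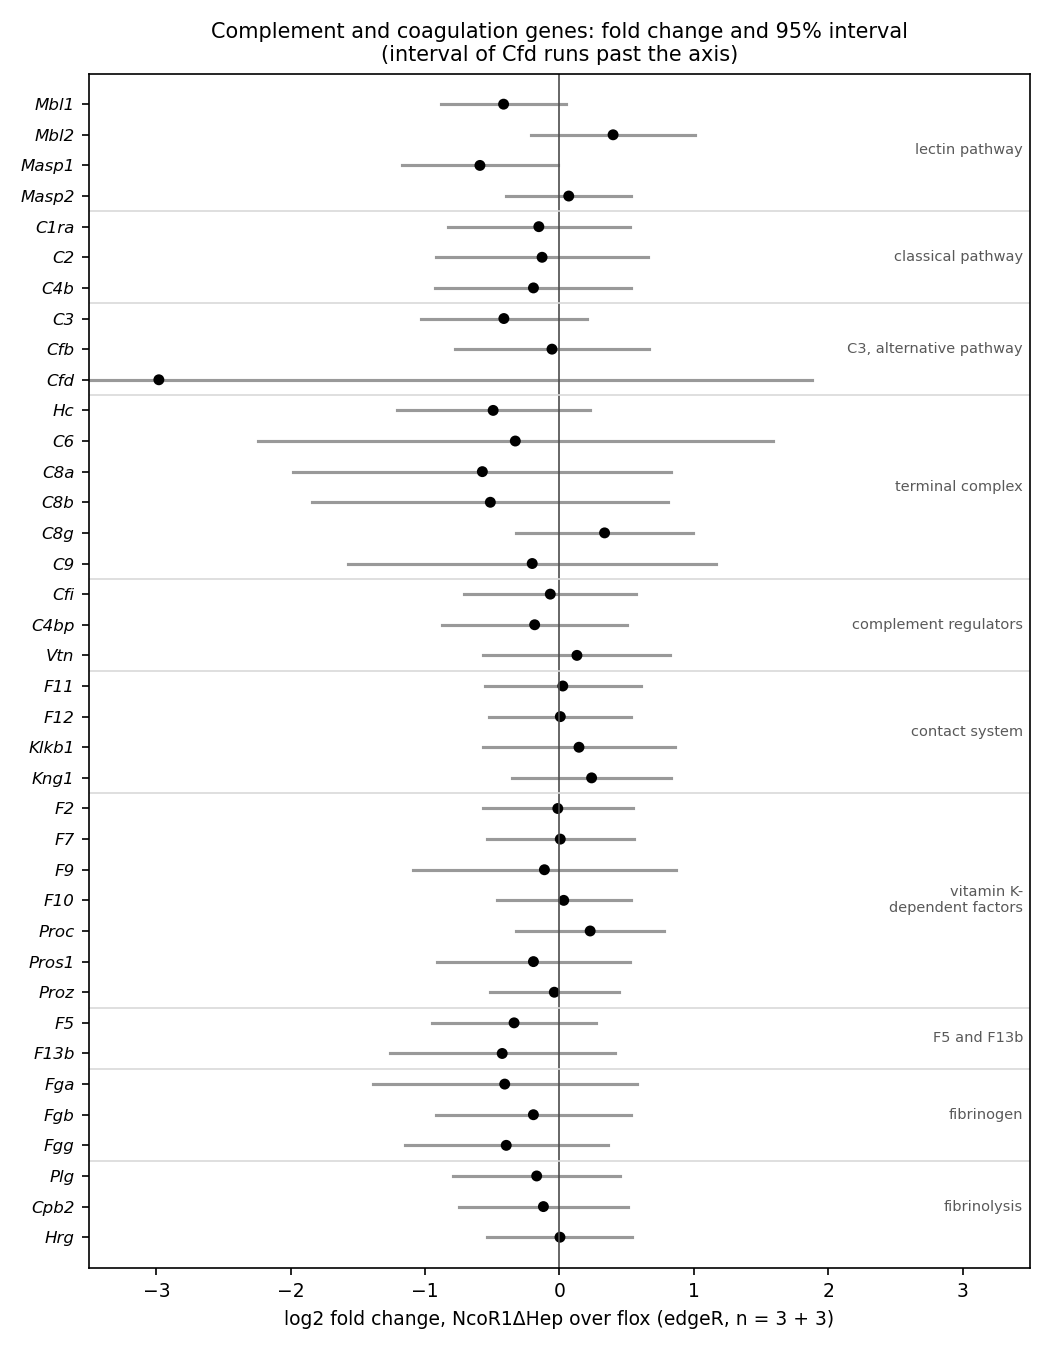
Log2 fold change of NcoR1ΔHep over flox (horizontal axis) for each of the 38 genes, ordered by role, with its 95% interval from edgeR (3 libraries against 3). Points to the left of zero are lower in NcoR1ΔHep; every interval but that of Masp1 crosses zero, and no gene passed the adjusted threshold.

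These genes were among the most abundant in the liver: 25 of the 38 had a mean of at least 100 FPKM over the 6 libraries (a level per length and library total), as did 660 genes in all. Means ran from 10.3 FPKM for Masp1 to 3409.8 FPKM for Fgb. For 23 of the 38 the highest library held less than 2 times the lowest. The median standard deviation of log2 CPM over the 6 libraries was 0.35 for the 38 genes, 0.39 for all genes tested and 0.32 for genes of at least 10 FPKM. Libraries nonetheless differed in order: NcoR1ΔHep 1 was the lowest library for 19 of the 38 genes and the highest for 7, while flox 3 was the highest for 19 and the lowest for none.

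In the lectin pathway, the recognition proteins and the proteases each held 1 gene that was lower in every NcoR1ΔHep library and 1 that was not. Mbl1, a mannose-binding lectin that recognises microbial sugars, stood at 64.8, 51.6 and 54.8 FPKM in flox 1 to 3 and at 40.7, 47.2 and 38.1 FPKM in NcoR1ΔHep 1 to 3. The group means were 57.1 ± 6.89 and 42.0 ± 4.69 (SD, n = 3 each), and the groups did not overlap; flox 2 and NcoR1ΔHep 2 lay nearest to each other. Its log2 fold change was -0.42 (SE 0.20, 95% interval -0.88 to 0.05, edgeR adjusted p = 0.931). Mbl2, the second mannose-binding lectin of the mouse, went the other way, at 335, 314 and 387 FPKM in flox and 643, 379 and 347 FPKM in NcoR1ΔHep. Only NcoR1ΔHep 1 lay above the flox range, and the log2 fold change of 0.40 (SE 0.27) became 0.16 without that library. In FPKM, Mbl2 exceeded Mbl1 5.17, 6.08 and 7.07 times in flox and 15.8, 8.03 and 9.10 times in NcoR1ΔHep, with NcoR1ΔHep 1 far above the rest. The size of this ratio depends on the lengths implied by FPKM, 5964 bases for Mbl1 and 1211 for Mbl2. In counts, flox 1 to 3 held 14680, 11848 and 12077 of Mbl1 against 15409, 14618 and 17336 of Mbl2. NcoR1ΔHep 1 to 3 held 9095, 10499 and 8476 against 29175, 17112 and 15666.

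Masp1, the protease that activates the lectin pathway, had the smallest p of the 38 genes. Its levels were 16.3, 10.6 and 10.7 FPKM in flox and 6.65, 10.4 and 7.31 FPKM in NcoR1ΔHep, or 12.6 ± 3.26 and 8.10 ± 1.98 (SD, n = 3 each). Flox 1 was the highest library, and in FPKM the groups were separated only by the small gap between flox 2 and NcoR1ΔHep 2. In TMM-scaled CPM, flox 3 lay nearest to NcoR1ΔHep 2, at 0.140 and 0.046 above the mean of all libraries (log2 CPM). The log2 fold change was -0.59 (SE 0.25, 95% interval -1.17 to -0.01), with an edgeR p of 0.0457 and an adjusted p of 0.931. Without NcoR1ΔHep 1 it was -0.41, and without flox 1 it was -0.43, neither with an unadjusted p under 0.05. Gene totals do not separate the splice products of Masp1, which include a protease form of its own and a form without a protease domain. Masp2, the protease that cuts C4 and C2, was among the steadiest of the 38 genes, between 52.7 and 70.9 FPKM, with a log2 fold change of 0.07 (SE 0.20).

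In the classical pathway, C1ra (a protease of the C1 complex), C2 and C4b (which together form the C3 convertase) had log2 fold changes of -0.15, -0.13 and -0.19, all within 1 SE of zero. All 3 were highest in flox 3 and NcoR1ΔHep 2. C2 reached 57.4 FPKM in flox 3 and 58.9 FPKM in NcoR1ΔHep 2, against 28.8 to 38.8 FPKM in the other 4 libraries. C4b stood highest in the same 2 libraries, at 306 and 259 FPKM against 155 to 208 FPKM, and so did Cfb, the convertase protease of the alternative pathway, at 615 and 609 FPKM against 348 to 436 FPKM. Cfb and C2 are neighbouring genes on chromosome 17. The same 2 libraries were high in Saa1, an acute-phase gene outside the list, which stood at 2427 FPKM in flox 3 and 2092 FPKM in NcoR1ΔHep 2 against 20.7 to 129 FPKM in the others. C1ra shares near-identical sequence with C1rb, and C4b with its copy C4a, which was not analysed here, so their counts are uncertain.

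C3, where the pathways meet, was lower in every NcoR1ΔHep library, though not by the test. It stood at 1495, 1453 and 1525 FPKM in flox, a narrow range, and at 1012, 1349.8 and 958 FPKM in NcoR1ΔHep. The means were 1491 ± 36.0 and 1107 ± 212 (SD, n = 3 each), with a log2 fold change of -0.41 (SE 0.27, 95% interval -1.03 to 0.21, edgeR adjusted p = 0.931). In FPKM, flox 2 lay nearest to NcoR1ΔHep 2, and the spread was wider in NcoR1ΔHep than in flox. In TMM-scaled CPM the groups nearly touched, with flox 1 nearest to NcoR1ΔHep 2. Relative to the mean of all libraries (log2 CPM), flox 1 to 3 lay at 0.074, 0.286 and 0.278. NcoR1ΔHep 1 to 3 lay at -0.435, 0.060 and -0.264. Without NcoR1ΔHep 1 the log2 fold change was -0.29.

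Cfd, factor D, the protease that activates factor B and is best known as the adipocyte protein adipsin, varied most of the 38 genes. It stood at 114, 0.338 and 1.14 FPKM in flox and at 0.608, 0 and 11.5 FPKM in NcoR1ΔHep, from 4007, 12, 39, 21, 0 and 395 counts. Flox 1 thus held most of the signal, NcoR1ΔHep 3 came next, and the 0 of NcoR1ΔHep 2 allows up to 3 counts at this depth (counting error only). The log2 fold change of -2.98 (SE 2.11) turned to 2.58 without flox 1. Cidec, an adipocyte marker fixed in the lists, was also highest in flox 1 (20.5 FPKM) and next in NcoR1ΔHep 3 (3.22 FPKM), against 0.395 to 0.570 FPKM elsewhere. Of the 8 adipocyte markers 7 were measured and 4 tested. The FPKM of the 7 summed to 46.7 in flox 1, 13.9 in flox 3 and 11.2 in flox 2, and to 11.9 to 14.1 in NcoR1ΔHep. Retn (18 counts in flox 1, at most 1 elsewhere), Fabp4 (20.4 FPKM) and Lipe (4.97 FPKM) were also highest in flox 1. Adrb3 was highest in NcoR1ΔHep 1 (0.904 FPKM). The defining markers Adipoq and Plin1 were listed at 0 in flox 1, but held at most 14 and 1 counts in any library. The part of other cells in this result was not tested.

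**Figure D2:**
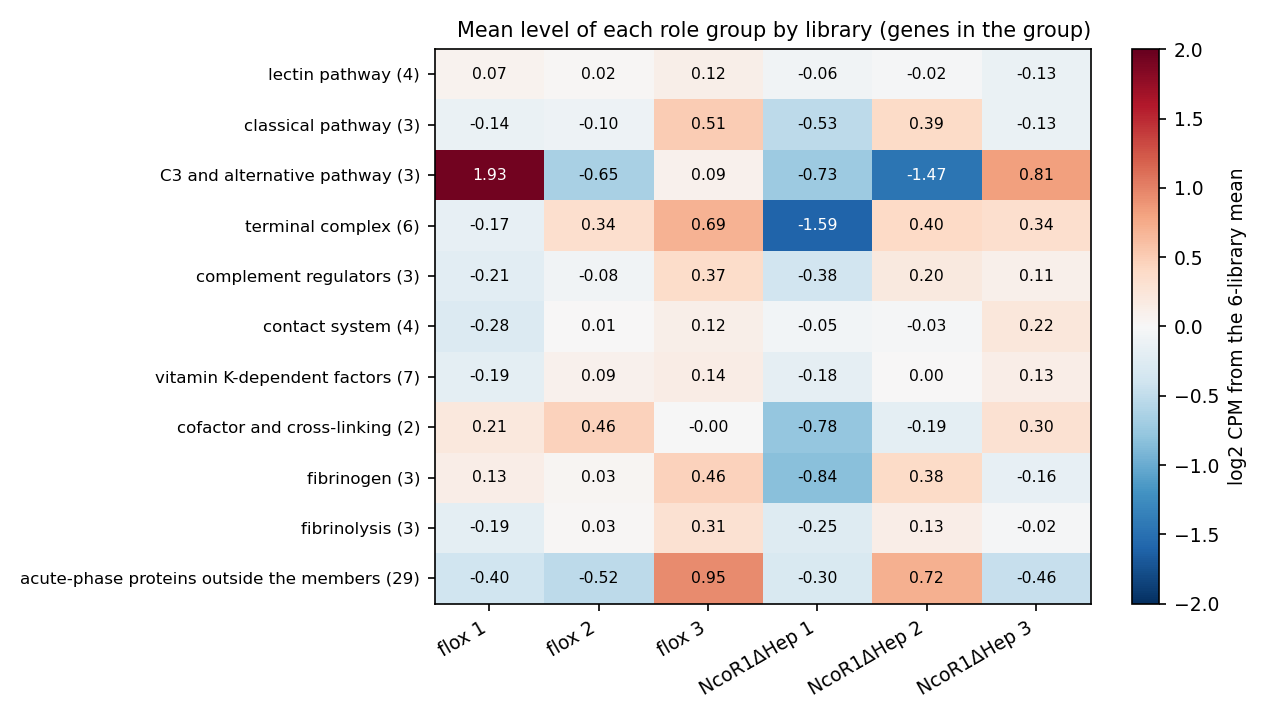
Mean level of each role group of the 38 genes in each library, as mean log2 CPM relative to the 6-library mean (colour), with the number of genes per group. The terminal complex is at -1.59 in NcoR1ΔHep 1, fibrinogen is high in flox 3 (0.46) and NcoR1ΔHep 2 (0.38), and the row of C3 and the alternative pathway is set by Cfd.

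Within the terminal complex, 4 of the 6 genes were low in a single library. C6, which binds activated C5 at the start of pore assembly, stood at 16.1, 28.1 and 59.9 FPKM in flox and at 3.40, 45.1 and 32.6 FPKM in NcoR1ΔHep. C8a, the alpha chain of C8, which enters the membrane, stood at 198, 209.9 and 258 FPKM in flox and at 32.2, 207 and 191 FPKM in NcoR1ΔHep. C8b, the beta chain that docks C8 on the growing complex, stood at 257, 267 and 283 FPKM in flox and at 45.3, 273 and 227 FPKM in NcoR1ΔHep. In each of them NcoR1ΔHep 1 was the lowest library by far, and NcoR1ΔHep 2 and 3 lay in or near the flox range. C9, which polymerises into the pore, followed the same order, at 234, 313 and 459 FPKM in flox and at 77.2, 388 and 383 FPKM in NcoR1ΔHep. Against the median of the other 5 libraries, NcoR1ΔHep 1 was 9.58-fold lower for C6, 6.43-fold for C8a, 5.91-fold for C8b and 4.95-fold for C9.

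The third chain of C8 did not share this. C8g, the gamma chain, a lipocalin bound to the alpha chain, stood at 172, 193 and 229 FPKM in flox and at 363, 209 and 184 FPKM in NcoR1ΔHep, so that NcoR1ΔHep 1 was its highest library. The ratio of C8a to C8g in FPKM was 1.15, 1.09 and 1.13 in flox and 0.0887, 0.987 and 1.04 in NcoR1ΔHep. C8b and C8a, which are neighbouring genes on chromosome 4, kept a ratio of C8a to C8b between 0.711 and 0.911 in all 6 libraries. C8g lies apart from them on chromosome 2, and C6 and C9 lie on chromosome 15.

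Because 1 library set these values, the group comparison of the terminal genes had wide errors. The log2 fold changes were -0.33 (SE 0.83) for C6, -0.57 (SE 0.61) for C8a, -0.51 (SE 0.58) for C8b, -0.20 (SE 0.60) for C9 and 0.34 (SE 0.29) for C8g. Without NcoR1ΔHep 1 they were 0.23, -0.07, -0.02, 0.28 and 0.07 in the same order. Hc, which encodes C5, the source of the C5a signal and the first protein of the pore, stood at 155, 154 and 189.7 FPKM in flox and at 77.7, 148 and 120.4 FPKM in NcoR1ΔHep. Its groups did not overlap in FPKM, although in TMM-scaled CPM they did, and its log2 fold change of -0.49 (SE 0.31) was -0.22 without NcoR1ΔHep 1.

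**Figure D3:**
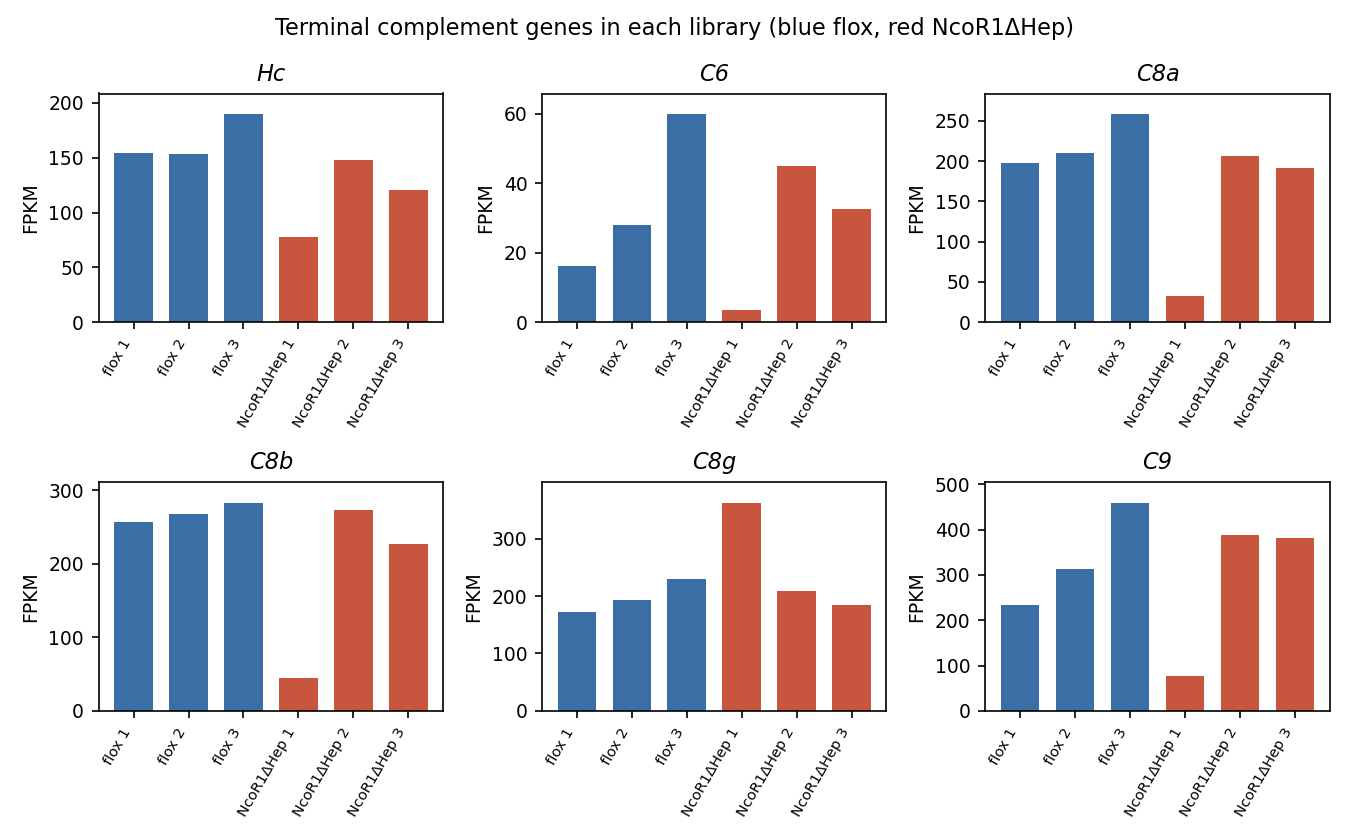
FPKM (vertical axes, from 0) of the terminal complement genes in each library, flox in blue and NcoR1ΔHep in red, 1 bar per library. NcoR1ΔHep 1 is the lowest bar for C6 (3.40), C8a (32.2), C8b (45.3), C9 (77.2) and Hc (77.7) and the highest for C8g (363).

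Only NcoR1ΔHep 1 had several of the 38 genes far below all other libraries. For 5 of the 38, C6, C8a, C8b, C9 and F13b, it lay more than 2-fold below each of the other 5 libraries in TMM-scaled CPM, beside 319 of all 13205 genes (2.42%). F13b was near that limit, at 1.95-fold below the next library in FPKM. In the other libraries this held for 0.386% to 0.916% of all genes and for no gene of the 38 except Cfd in NcoR1ΔHep 2. NcoR1ΔHep 1 lay more than 2-fold above each other library for none of the 38, beside 3.05% of all genes. As background, terminal complement activity in mouse serum is known to be higher in males than in females. The labels used here give no sex, and the Xist count and Y-linked levels of NcoR1ΔHep 1 are given above. Whether they bear on the terminal genes was not tested.

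The upstream sequences of C8a, C8b and C9 are shown because these genes were low together in NcoR1ΔHep 1. C6, which varied more, is not printed, since its window held no match to any motif searched. Each is the 250 bases before the annotated start, read 5′ to 3′ on the gene's strand, from RefSeq (GRCm38.p6). Capitals mark the letters of an HNF1 core (GTTAAT, or ATTAAC for the other strand), a STAT motif (TTCNNNGAA) or a C/EBP motif (TTGCNNAA); HNF1, STAT3 and C/EBP are transcription factors of liver gene expression.
C8a, chr4:104876399-104876648, minus strand: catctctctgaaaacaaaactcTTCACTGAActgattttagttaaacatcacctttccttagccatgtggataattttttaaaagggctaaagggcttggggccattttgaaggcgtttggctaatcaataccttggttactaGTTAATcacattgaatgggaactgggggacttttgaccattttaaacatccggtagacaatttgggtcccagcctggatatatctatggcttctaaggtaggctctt
C8b, chr4:104766067-104766316, plus strand: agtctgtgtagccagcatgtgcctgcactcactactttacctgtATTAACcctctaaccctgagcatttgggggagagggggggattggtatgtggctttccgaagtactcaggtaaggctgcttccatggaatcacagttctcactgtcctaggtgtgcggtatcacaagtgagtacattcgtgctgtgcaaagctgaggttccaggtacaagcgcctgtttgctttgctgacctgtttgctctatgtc
C9, chr15:6445096-6445345, plus strand: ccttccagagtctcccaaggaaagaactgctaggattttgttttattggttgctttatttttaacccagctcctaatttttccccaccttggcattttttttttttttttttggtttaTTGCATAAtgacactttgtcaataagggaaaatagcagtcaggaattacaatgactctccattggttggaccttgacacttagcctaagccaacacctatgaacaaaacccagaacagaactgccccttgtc
The core GTTAAT occurred 107 to 102 bases before the start of C8a and, on the other strand, 206 to 201 bases before that of C8b, but not in the window of C9. On either strand it was found in the windows of 10 of the 30 matched members and in 6.43% of all 32851 promoters of this length, a count that includes the longer HNF1 motif GTTAATNAT, which contains it (4 members, 0.737% of all). C9 held TTGCATAA, a match to TTGCNNAA, 132 to 125 bases before its start and 9.56% of all promoters held a match to that motif. A match of letters is a description and not a binding site.

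Among the regulators, Cfi (the protease that inactivates C3b), C4bp (which binds C4b) and Vtn (vitronectin, which blocks pore insertion) had log2 fold changes of -0.07, -0.18 and 0.13, each within 1 SE of zero. Cfi ranged from 258 to 421 FPKM and C4bp from 208 to 407 FPKM, with NcoR1ΔHep 1 lowest and flox 3 highest for both. Vtn ranged from 1172 to 1970.0 FPKM, and its lowest and highest libraries were both flox.

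The contact system, which starts coagulation on surfaces and frees bradykinin, held no gene whose groups were apart. F11 and F12, its coagulation proteases, had log2 fold changes of 0.02 (SE 0.25) and 0.01 (SE 0.23), with ranges of 34.6 to 47.0 and 164 to 230.0 FPKM. Klkb1, plasma prekallikrein, stood at 99.5 FPKM in flox 2 and 118 FPKM in NcoR1ΔHep 3 against 72.7 to 81.2 FPKM elsewhere, and its neighbour on chromosome 8, F11, did not share that order. Kng1, the bradykinin precursor, reached 1184 FPKM in NcoR1ΔHep 1 against 719.5 to 931 FPKM, and its log2 fold change was 0.24 (SE 0.26); it has a near-identical copy, Kng2, so its count is uncertain.

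The vitamin K-dependent factors (F2, F7, F9, F10, Proc, Pros1 and Proz) had log2 fold changes between -0.19 and 0.23, 3 above zero and 4 below. F2, prothrombin, the precursor of thrombin, stood at 630.0, 562 and 754 FPKM in flox and at 619.7, 705 and 579 FPKM in NcoR1ΔHep. The groups overlapped fully, with means of 649 ± 97.0 and 635 ± 64.1 (SD, n = 3 each) and a log2 fold change of -0.01 (SE 0.24, 95% interval -0.57 to 0.54), an interval that leaves room for a difference of either sign. F7 and F10, the factors that turn tissue factor exposure into thrombin, lay at 0.01 (SE 0.24) and 0.03 (SE 0.22). Proz, the cofactor for inhibition of factor Xa, varied least of the 38 genes, from 90.5 to 114 FPKM. Proc, the anticoagulant protein C, ranged from 155 to 257 FPKM, highest in NcoR1ΔHep 1, and Pros1, its cofactor protein S, from 10.8 to 21.6 FPKM, lowest in NcoR1ΔHep 1. F9, whose loss causes haemophilia B, had the widest spread of the group on the log2 scale (SD 0.59 over the 6 libraries), with 138 FPKM in flox 2 and 139 FPKM in NcoR1ΔHep 3 against 59.9 to 90.0 FPKM elsewhere, the same 2 libraries that were high in Klkb1.

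F5, the cofactor of factor Xa, stood at 89.6, 80.0 and 67.3 FPKM in flox and at 52.8, 55.1 and 73.9 FPKM in NcoR1ΔHep. NcoR1ΔHep 3 lay above flox 3, so the groups overlapped, and the log2 fold change was -0.34 (SE 0.27). F13b, the carrier subunit of the fibrin cross-linking enzyme, stood at 114, 127 and 89.0 FPKM in flox and at 45.6, 88.7 and 103 FPKM in NcoR1ΔHep. NcoR1ΔHep 1 was its lowest library, and the log2 fold change of -0.43 (SE 0.36) was -0.10 without it.

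The 3 fibrinogen chains, which polymerise into the fibrin clot, were the most abundant of the 38 genes by mean FPKM and were all lowest in the same library. Fga stood at 2169, 1658 and 2447 FPKM in flox and at 807, 2486 and 1329.8 FPKM in NcoR1ΔHep. Fgb stood at 3658, 3015 and 4329 FPKM in flox and at 2437, 4254 and 2765 FPKM in NcoR1ΔHep. Fgg stood at 2735, 2104 and 2826 FPKM in flox and at 1326, 2656 and 1714 FPKM in NcoR1ΔHep. Flox 3, which was high in Saa1, was the highest or second highest library for all 3 chains, NcoR1ΔHep 2, also high in Saa1, was within the top 3, and NcoR1ΔHep 1 was the lowest throughout. The log2 fold changes were -0.41 (SE 0.43) for Fga, -0.19 (SE 0.32) for Fgb and -0.40 (SE 0.33) for Fgg, and -0.06, 0.02 and -0.14 without NcoR1ΔHep 1.

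The chains did not keep a fixed ratio. Fga was 0.593, 0.550 and 0.565 of Fgb in flox and 0.331, 0.584 and 0.481 of it in NcoR1ΔHep, while Fgg ranged from 0.544 to 0.747 of Fgb. The 29 acute-phase and interleukin-6 signalling genes outside the list averaged 0.95 above their mean level in flox 3 and 0.72 above it in NcoR1ΔHep 2 on the log2 scale, and 0.30 to 0.52 below it in the other 4 libraries. Fibrinogen itself averaged 0.46 and 0.38 above in those 2 libraries. The 2 libraries lie in different groups, and the part of the acute-phase state in the fold changes was not tested.

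**Figure D4:**
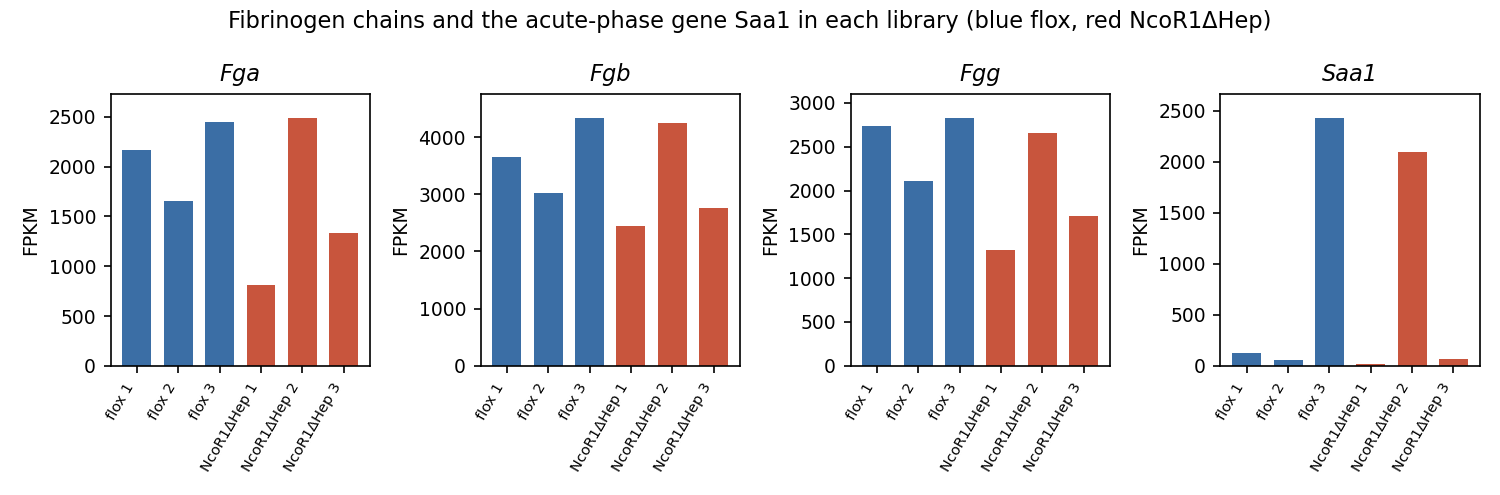
FPKM (vertical axes, from 0) of the fibrinogen chains Fga, Fgb and Fgg and of the acute-phase gene Saa1 in each library, flox in blue and NcoR1ΔHep in red, 1 bar per library. Saa1 is at 2427 in flox 3 and 2092 in NcoR1ΔHep 2, and the fibrinogen chains are lowest in NcoR1ΔHep 1 (807 for Fga).

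Fgg, Fga and Fgb are neighbouring genes on chromosome 3, and the 250 bases before their starts (RefSeq, GRCm38.p6, 5′ to 3′ on the gene's strand) are shown because the chains moved together across libraries. Capitals mark CTGGGA, the core of the interleukin-6 response element of fibrinogen genes, and matches to the C/EBP motif TTGCNNAA on either strand.
Fga, chr3:83025903-83026152, plus strand: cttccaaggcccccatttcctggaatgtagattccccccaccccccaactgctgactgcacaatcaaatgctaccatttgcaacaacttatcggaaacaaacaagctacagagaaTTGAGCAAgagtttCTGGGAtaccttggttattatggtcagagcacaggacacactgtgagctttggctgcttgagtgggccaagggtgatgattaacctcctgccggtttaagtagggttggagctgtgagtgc
Fgb, chr3:83049864-83050113, minus strand: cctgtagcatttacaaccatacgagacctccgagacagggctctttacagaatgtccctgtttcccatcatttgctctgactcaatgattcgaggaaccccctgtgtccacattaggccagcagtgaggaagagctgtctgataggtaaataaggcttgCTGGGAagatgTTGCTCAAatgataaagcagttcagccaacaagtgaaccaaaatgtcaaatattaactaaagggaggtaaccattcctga
Fgg, chr3:83007474-83007723, plus strand: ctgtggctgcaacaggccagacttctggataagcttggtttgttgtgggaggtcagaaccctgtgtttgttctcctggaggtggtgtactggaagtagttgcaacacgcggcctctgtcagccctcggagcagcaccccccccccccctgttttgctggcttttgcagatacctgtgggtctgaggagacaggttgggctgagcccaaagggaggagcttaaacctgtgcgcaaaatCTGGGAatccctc
All 3 windows held CTGGGA on the gene's own strand, 121 to 116 bases before the start of Fga, 91 to 86 before that of Fgb and 13 to 8 before that of Fgg. The C/EBP letters lay close to it in Fga (135 to 128, on the other strand) and Fgb (80 to 73), and were not in the window of Fgg. CTGGGA was found on either strand in 13 of the 30 matched members and in 27.0% of all 32851 promoters, so it is a common word. STAT letters TTCNNNGAA were in the windows of Fga and Fgb, in 6 of the 30 and in 7.02% of all. The letters of an HNF4 element, CAAAGTCCA, were in none of the 30 windows (0.384% of all promoters), and TATAAA was in 3 (12.4% of all).

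In fibrinolysis, Plg (plasminogen, the precursor of plasmin), Cpb2 (the carboxypeptidase that slows clot lysis) and Hrg (which binds plasminogen and heparin) had log2 fold changes of -0.17 (SE 0.27), -0.12 (SE 0.27) and 0.00 (SE 0.23). Plg ranged from 799 to 1222 FPKM and Cpb2 from 254 to 418 FPKM, both lowest in NcoR1ΔHep 1 and highest in flox 3. Hrg, between 477 and 599 FPKM, had its highest library in NcoR1ΔHep 1.

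Gene length moved with the same libraries. Among genes of at least 10 FPKM, those under 1000 bases lay a median 0.54 above their 6-library mean (log2 CPM) in NcoR1ΔHep 1 and those over 6000 bases 0.43 below it. Flox 2 ran the other way, at -0.24 and 0.32, and so did NcoR1ΔHep 3, at -0.15 and 0.32. The rest lay at -0.29 and 0.01 (flox 1), 0.10 and -0.08 (flox 3), and 0.02 and -0.16 (NcoR1ΔHep 2). Each direction thus held libraries of both groups. The length is the one implied by the counts and FPKM values. Masp1 (7381 bases), Mbl1 (5964), Hc (5571) and C3 (5208), which are the 4 genes whose groups did not overlap in FPKM, are all at least 5208 bases long, as were F5 (7433), C4b (5481) and Klkb1 (5226), whose groups overlapped and of which Klkb1 had a log2 fold change above 0 (0.15). C6, C8a, C8b and C9, at 3536, 3715, 2239 and 2263 bases, lay 2.83, 2.36, 2.20 and 1.90 below their means in NcoR1ΔHep 1, where the median genes of 2000 to 3000 and of 3000 to 4000 bases lay 0.13 and 0.27 below. C8g (1424 bases) and Mbl2 (1211), both high in that library by 0.64 and 0.63, belong to the class of 1000 to 2000 bases, whose median was 0.14 above. With the length trend of each library removed, an alternative chosen after seeing the data, the log2 fold changes were -0.50 for Masp1, -0.33 for Mbl1, -0.36 for C3 and -0.47 for Hc, and only Mbl1 kept groups that did not overlap.

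**Figure D5:**
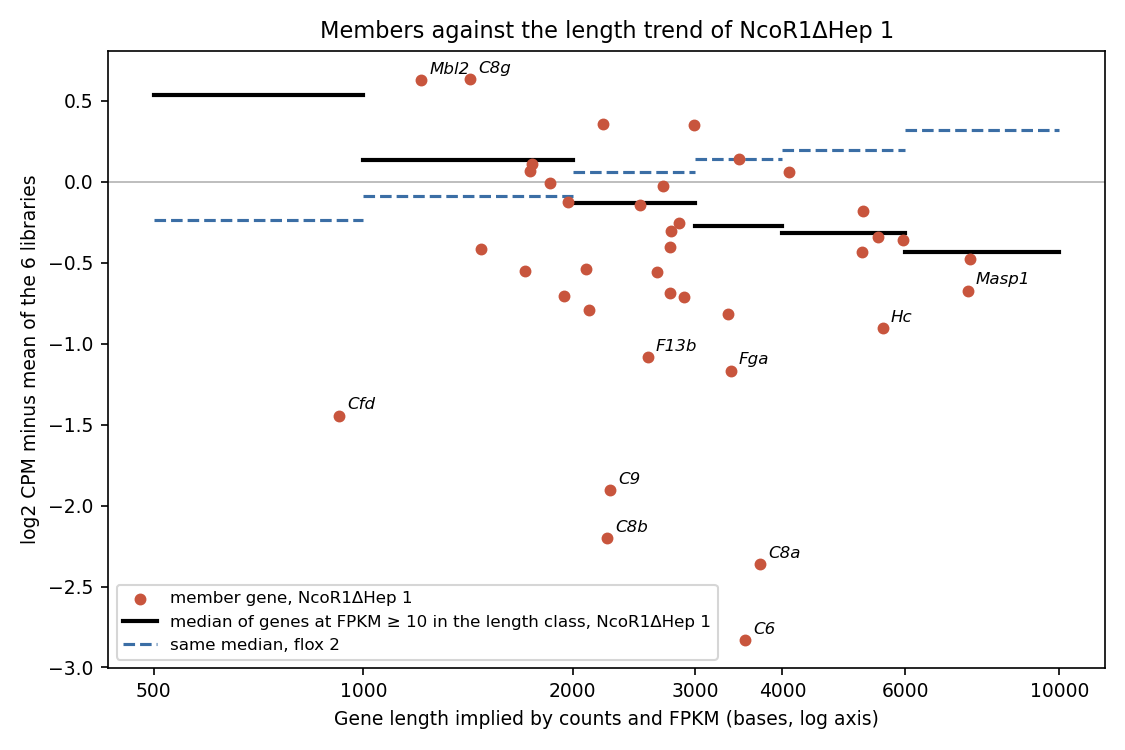
Log2 CPM minus the mean of the 6 libraries (vertical axis) in NcoR1ΔHep 1 for each of the 38 genes (points) against gene length in bases (log axis), with the median of all genes of at least 10 FPKM per length class in NcoR1ΔHep 1 (black) and flox 2 (dashed). The black medians run from 0.54 under 1000 bases to -0.43 over 6000, and C6, C8a, C8b and C9 lie well below them.

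Other genes of the pathway, from a fixed list of receptors, inhibitors, tissue factors and further complement proteins, gave the same picture. Of 84 listed, 73 passed the filter, and neither edgeR nor DESeq2 called any. By sign 34 lay above zero and 39 below, with a median log2 fold change of -0.02. At an unadjusted p under 0.05 edgeR gave 4 of the 73 (5.48%, beside 3.35% of all genes), all lower in NcoR1ΔHep, and 5 of the 73 had groups that did not overlap (6.85%, beside 8.82%).

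The 4 were F8, C1rb, Cd93 and Thbd. F8, coagulation factor VIII, made in the liver by sinusoidal endothelial cells, stood at 2.27, 1.03 and 0.886 FPKM in flox and at 0.704, 0.554 and 0.748 FPKM in NcoR1ΔHep, with a log2 fold change of -0.99 (SE 0.34, edgeR adjusted p = 0.931). All NcoR1ΔHep values lay below all flox values, and flox 1 was the highest. C1rb stood at 0.571, 1.16 and 0.637 FPKM against 0.234, 0.384 and 0.297 FPKM (log2 fold change -1.37, SE 0.48), from 19 to 97 counts. Cd93, an endothelial and myeloid surface receptor, stood at 2.16, 0.615 and 0.758 FPKM against 0.494, 0.569 and 0.488 FPKM (log2 fold change -1.11, SE 0.43), and Thbd, thrombomodulin, the endothelial receptor through which thrombin activates protein C, at 1.16, 1.12 and 1.13 against 0.840, 0.678 and 0.685 FPKM (log2 fold change -0.61, SE 0.26). In both, the groups were apart, in Cd93 by a small gap. Next by p came Vwf, the endothelial carrier of factor VIII, at 0.784, 0.605 and 0.333 FPKM in flox and 0.394, 0.159 and 0.339 FPKM in NcoR1ΔHep (log2 fold change -0.91, SE 0.43). Plgrkt, a plasminogen receptor, followed at 1.13, 1.48 and 1.27 FPKM in flox and 6.15, 2.01 and 1.01 FPKM in NcoR1ΔHep (log2 fold change 1.19, SE 0.58). For both Vwf and Plgrkt the groups overlapped. Beside these, the 10 sinusoidal endothelial markers of the fixed list all had log2 fold changes below zero (median -0.72, 2 of 10 with an unadjusted edgeR p under 0.05), and their FPKM summed to 163, 59.3 and 93.9 in flox and 97.2, 56.2 and 39.3 in NcoR1ΔHep. Whether their level accounts for F8, Cd93, Thbd and Vwf was not tested.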

How the data were processed

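The counts, as deposited, are whole and not normalized, with 1 row per gene symbol and 1 column for each of 6 mouse liver libraries. The deposited FPKM table holds counts scaled by the authors to gene length and library total: for all 12656 genes with at least 20 counts in 2 libraries, both tables implied 1 length. Per the labels' protocols, total RNA was made into libraries with a SMARTer mRNA kit. Per the submitters' processing notes the builds were GRCm38, mm10 and hg38, with no role stated; for the aligner, the counter and strandedness: not given in the sources used here. Promoters and their coordinates are RefSeq's for GRCm38.p6, matched by symbol for 30 of the 38 genes.

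Genes were filtered with filterByExpr (minimum count 10, minimum total 15), scaled by TMM and tested, NcoR1ΔHep against flox, with edgeR 4.0.16 in R 4.3.3 (quasi-likelihood test, two-sided, Benjamini-Hochberg adjustment over all 13205 genes, threshold 0.05); the script was tested on simulated data. Alternatives used DESeq2 1.42.0, limma 3.58.1 on log2(FPKM + 1), other scalings and filters, a replicate block, and libraries left out. Log2 CPM was TMM-scaled and used a prior count of 2.

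The members and lists were chosen with earlier results of these data known. Values per library are given for the 10 members with the smallest p, the 6 most variable, those whose groups did not overlap, and Fga, Fgb, Fgg, C3, Hc and F2, and, of the other pathway genes, the 6 with the smallest p. Other members are given by range or fold change. A library was called apart for a gene when it lay more than 2-fold from all others in TMM-scaled CPM.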

Additional observations from a re-analysis of the deposited data

How the results depend on the processing

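No member was called under any of the 20 alternatives, with a smallest adjusted p of 0.626. DESeq2 called 5 genes in all. The count of members at an unadjusted p under 0.05 was 1, and 0 with RLE or upper-quartile factors, without the count filter, with the replicate block and with the length trend removed (chosen after seeing the data). It was 0 to 1 with single libraries left out. Members with groups that did not overlap numbered 3 (beside 8.82% of all genes), and 1 with the length trend removed (8.47% of all genes). With single libraries left out they numbered 3 to 10, where the share of all genes also rose, to between 11.7% and 25.9%. Without both high acute-phase libraries they numbered 14, where 39.3% of all genes did not overlap. The median log2 fold change of the members ranged from -0.30 to 0.07 with single libraries left out.

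The sign was the same in all alternatives for 16 of the 38, and 58 of 759 values had the other sign. Cfd (-2.98) turned to 2.58 without flox 1 and was -6.91 without NcoR1ΔHep 3. With single libraries left out, C6 ranged from -0.84 to 0.33, C9 from -0.58 to 0.28, F2 from -0.082 to 0.13 and Fgb from -0.45 to 0.015; the sign turned without NcoR1ΔHep 1 for all 4 and without flox 3 for C6, C9 and F2. F2 was 0.0030 with RLE factors, 0.018 with upper-quartile factors, 0.0016 without the count filter and 0.063 without both high acute-phase libraries. The cause of these turns was not tested beyond the library left out.

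Deviations of same-numbered libraries from their group means correlated at 0.02, -0.33 and -0.47. The best match of flox 1 was NcoR1ΔHep 1, that of flox 2 was NcoR1ΔHep 3 and that of flox 3 was NcoR1ΔHep 2. With 3 libraries a group these values cannot show whether the numbers mark a litter, batch or day. With the replicate block, 175 genes (1.33%) had an unadjusted p under 0.05, beside 443 without it, and the median of the members was -0.18. There were 3 libraries a group, and 1 library stood apart. At the median over the members, the unadjusted interval of a log2 fold change reached 0.67 to either side. This width varied between genes and does not mark a size above which a difference would have been found.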

Other observations

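Outside the pathway, of 29 acute-phase and interleukin-6 signalling genes 9 had log2 fold changes above 0 and 20 below (median -0.10), and of 17 hepatocyte transcription factors 11 lay above 0 and 6 below (median 0.07). No gene of either list was called by edgeR (adjusted p at least 0.931). The genes below were chosen after their values were seen. Il6st, the signalling chain of the interleukin-6 receptor, stood at 26.8, 13.7 and 12.6 FPKM in flox and at 8.92, 9.05 and 7.70 FPKM in NcoR1ΔHep, groups that did not overlap, with a log2 fold change of -1.0 (SE 0.27). Stat3, the transcription factor downstream of it, stood at 21.3, 17.2 and 17.9 against 10.3, 17.6 and 12.2 FPKM (log2 fold change -0.46, SE 0.25). Its groups overlapped in FPKM, although in TMM-scaled CPM all NcoR1ΔHep libraries lay below all flox libraries. Onecut1, a hepatocyte transcription factor, stood at 25.1, 6.94 and 11.7 against 0.395, 6.95 and 1.03 FPKM (log2 fold change -2.32, SE 0.93), with NcoR1ΔHep 1 lowest and NcoR1ΔHep 2 level with flox 2 in FPKM. In TMM-scaled CPM its groups did not overlap either. In the other direction, Socs3, the feedback inhibitor of that signalling, lay 0.59 above 0 on the log2 scale (SE 0.48), as did Dbp, a clock-driven transcription factor, by 1.68 (SE 1.16). Orm3, an acute-phase gene, had the largest log2 fold change of the 29, at 2.19 (SE 0.94). It stood at 0.751, 0.459 and 0.912 FPKM in flox and at 8.67, 0.549 and 0.818 FPKM in NcoR1ΔHep. In Socs3, Dbp and Orm3 the groups overlapped.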
